A study of Mus musculus with 16 samples.

Results

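The genes described here are 8 developmental members of the T-box family: Tbx1, Tbx2, Tbx4, Tbx5, Tbx15, Tbx18, Tbx20 and Tbx21. They were named as a group without a rule on measured values, but with earlier results of these data known, so that their shares of marked genes do not come from a blind choice. They are 8 of the 26180 mouse genes with a start site in the curated RefSeq annotation of GRCm38. Chromatin immunoprecipitation followed by sequencing (ChIP-seq) had been used to map H3K4me3, H3K27me3 and Suz12 in mouse embryonic stem cells (ESCs) kept self-renewing in 2 ways. LIF-ESCs were grown with 100 units per ml of leukaemia inhibitory factor, and Myc-ESCs were grown without LIF and with 50 nM 4-hydroxytamoxifen (OHT), which activates a MycER fusion protein. Both cultures were R1 ESCs, and the study used a clone carrying MycER. Both were grown without feeder cells on gelatin, in serum-containing medium with vitamin C. Each antibody was used on 2 libraries per culture, which with 4 inputs makes 16 libraries in the labels, but 1 peak list was deposited for each culture and antibody. Read counts and values per library are not part of these 6 lists. The depth is therefore unknown, and nothing below could be weighed against replicate spread. All values are descriptions of 6 lists, without a test. The lists differ in length. For H3K27me3 the LIF-ESC list had 3120 peaks and the Myc-ESC list 16717, for Suz12 they had 11305 and 13907, and for H3K4me3 32469 and 30345.

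T-box factors bind DNA through the conserved T-box domain and control the formation of heart, limbs, skeleton and other organs. Most of their genes are silent in pluripotent cells and many are known targets of the Polycomb group. Polycomb repressive complex 2 (PRC2), of which Suz12 is a core subunit, places trimethylation on lysine 27 of histone H3. H3K4me3 marks the start sites of active genes, and its presence together with H3K27me3 defines the bivalent state of many developmental regulators in ESCs. Among the 8 genes, Tbx1 acts in the pharyngeal arches and the outflow tract, and Tbx2 is a repressor that acts in the atrioventricular canal. Tbx5 and Tbx4 act in the forelimb and hindlimb buds, Tbx5 also in the heart. Tbx20 is required in the developing heart, Tbx15 in the skeleton and Tbx18 in the sinus node and ureter. Tbx21 encodes T-bet, the regulator of type 1 helper T cells.

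Genes listed as markers of cell types were read first. All 9 genes listed as ESC markers, Pou5f1, Sox2 and Nanog among them, had H3K4me3 near the start in both cultures. Of these 9 genes, only Esrrb had a Suz12 peak in LIF-ESCs, and Esrrb and Klf4 had one in Myc-ESCs. H3K27me3 was found at none of the 9 in LIF-ESCs and at Esrrb alone in Myc-ESCs. Of 11 genes listed as markers of differentiated cells, 10 carried H3K4me3 in each culture and 9 carried Suz12 in each. H3K27me3 was found at 5 of these 11 in LIF-ESCs and at 8 in Myc-ESCs. Over all genes the shares in LIF-ESCs and Myc-ESCs were 62.2% and 63.3% for H3K4me3, and 12.1% and 14.6% for Suz12. For H3K27me3 they were 3.82% and 10.7%. H3K4me3 was thus found at nearly all genes of both marker lists, so that it could not tell the cell types apart. The lists give chromatin marks and no RNA, so the expression of these genes is not described.

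A gene was called marked when a peak overlapped, by at least 1 bp, the window of 2500 bp on each side of any of its start sites. Tbx1 has 3 curated start sites and Tbx4 has 2, so that their windows span 8703 bp and 10002 bp, while the other 6 genes have 1 start site and a window of 5001 bp. Positions below count bases from the outermost start site, with negative values upstream. In GRCm38 the genes occupy chr16:18580979-18590671 on the minus strand (Tbx1), chr11:85832615-85841948 on the plus strand (Tbx2), chr11:85886367-85916097 on the plus strand (Tbx4) and chr5:119834663-119885218 on the plus strand (Tbx5). The others lie at chr3:99253760-99354260 on the plus strand (Tbx15), chr9:87702800-87731260 on the minus strand (Tbx18), chr9:24720812-24774303 on the minus strand (Tbx20) and chr11:97098007-97115331 on the minus strand (Tbx21).

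Promoter sequences were available from the RefSeq table (GRCm38.p6) for Tbx1, Tbx4, Tbx18, Tbx20 and Tbx21. The 4 below were chosen to show promoters with H3K4me3 in Myc-ESCs only, in both cultures and in neither. They give the 250 bases before a start site, 5′ to 3′ along the gene, with CpG dinucleotides in capitals. Both Tbx1 promoters carried no H3K4me3 in LIF-ESCs and were covered by it over all 250 bases in Myc-ESCs. The Tbx20 promoter, like that of Tbx18, was covered over all 250 bases by H3K4me3 and by Suz12 in both cultures. The internal promoter of Tbx4, at position 10398, had no base in any of the 6 lists.
Tbx1 outermost start, chr16:18590672-18590921, minus strand: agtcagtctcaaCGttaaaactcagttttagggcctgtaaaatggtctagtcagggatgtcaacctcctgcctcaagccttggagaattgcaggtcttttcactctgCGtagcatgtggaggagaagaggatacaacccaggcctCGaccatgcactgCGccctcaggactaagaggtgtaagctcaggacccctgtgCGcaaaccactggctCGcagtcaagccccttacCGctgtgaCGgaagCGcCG
Tbx1 second start, chr16:18588900-18589149, minus strand: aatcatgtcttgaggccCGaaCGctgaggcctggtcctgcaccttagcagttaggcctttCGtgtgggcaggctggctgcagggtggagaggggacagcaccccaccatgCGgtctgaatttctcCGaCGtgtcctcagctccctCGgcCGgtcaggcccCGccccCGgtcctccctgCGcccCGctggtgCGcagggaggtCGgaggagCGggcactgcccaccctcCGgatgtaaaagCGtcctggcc
Tbx20, chr9:24774304-24774553, minus strand: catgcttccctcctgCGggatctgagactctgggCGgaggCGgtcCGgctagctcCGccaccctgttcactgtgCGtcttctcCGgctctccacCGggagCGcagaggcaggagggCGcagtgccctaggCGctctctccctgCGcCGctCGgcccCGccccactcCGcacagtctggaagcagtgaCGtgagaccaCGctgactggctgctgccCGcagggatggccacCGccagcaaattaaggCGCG
Tbx4 internal start, chr11:85896515-85896764, plus strand: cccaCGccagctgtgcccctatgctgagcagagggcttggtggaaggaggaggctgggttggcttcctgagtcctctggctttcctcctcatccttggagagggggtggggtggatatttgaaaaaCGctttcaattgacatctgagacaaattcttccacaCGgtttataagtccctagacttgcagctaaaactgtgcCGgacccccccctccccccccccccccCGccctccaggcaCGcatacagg
The Tbx20 promoter held 22 CpG in these 250 bases, those of Tbx18 and Tbx21 held 15 and 16, and the second and outermost Tbx1 promoters held 17 and 10. The internal Tbx4 promoter, the one without a mark, held 6. Over the 300 bases of the table, which reach into the transcript, Tbx20 and the second Tbx1 start had 26 CpG each, more than 83.1% of the promoters in the table. Tbx21 had 21, the outermost Tbx1 start 16, Tbx18 15 and the internal Tbx4 start 8, against a median of 7 over all promoters. Neither the E-box CACGTG, which Myc binds with Max, nor the T-box half-site AGGTGTGA occurred on either strand in any of the 6 promoters of these genes. The E-box occurred in 7.15% and the half-site in 1.28% of all promoters of the table. No H3K27me3 peak of either culture touched the 250 bases before the start in any of these 6 promoters.

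Suz12 was found at the start sites of all 8 genes in LIF-ESCs and again in Myc-ESCs. Over all curated genes the shares were 12.1% and 14.6%. H3K27me3 was found at 6 of the 8 in LIF-ESCs, all but Tbx1 and Tbx21, where 3.82% of all genes had it, and at all 8 in Myc-ESCs, where 10.7% of all genes had it. H3K4me3 was found at Tbx2, Tbx15, Tbx18, Tbx20 and Tbx21 in LIF-ESCs, 5 of 8 against 62.2% of all genes, and in addition at Tbx1 and Tbx4 in Myc-ESCs, 7 of 8 against 63.3%. The H3K4me3 share of the T-box genes in LIF-ESCs was thus close to that of all genes, while their shares with Suz12 and H3K27me3 were several times the background. Tbx5 was the 1 gene of the 8 without H3K4me3 at its start site in both lists. All 3 marks together were found at Tbx2, Tbx15, Tbx18 and Tbx20 in LIF-ESCs (4 of 8, 2.77% of all genes) and at all of the 8 except Tbx5 in Myc-ESCs (7 of 8, 8.87% of all genes). None of the 8 genes had a mark in LIF-ESCs that was missing from the window in Myc-ESCs. Over all genes that were marked in LIF-ESCs, 1.95% lacked H3K4me3, 19.2% H3K27me3 and 10.6% Suz12 in Myc-ESCs. Suz12 was present in Myc-ESCs only at none of the 8, which all had it in both, and at 4.34% of all genes without it in LIF-ESCs.

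**Figure D1:**
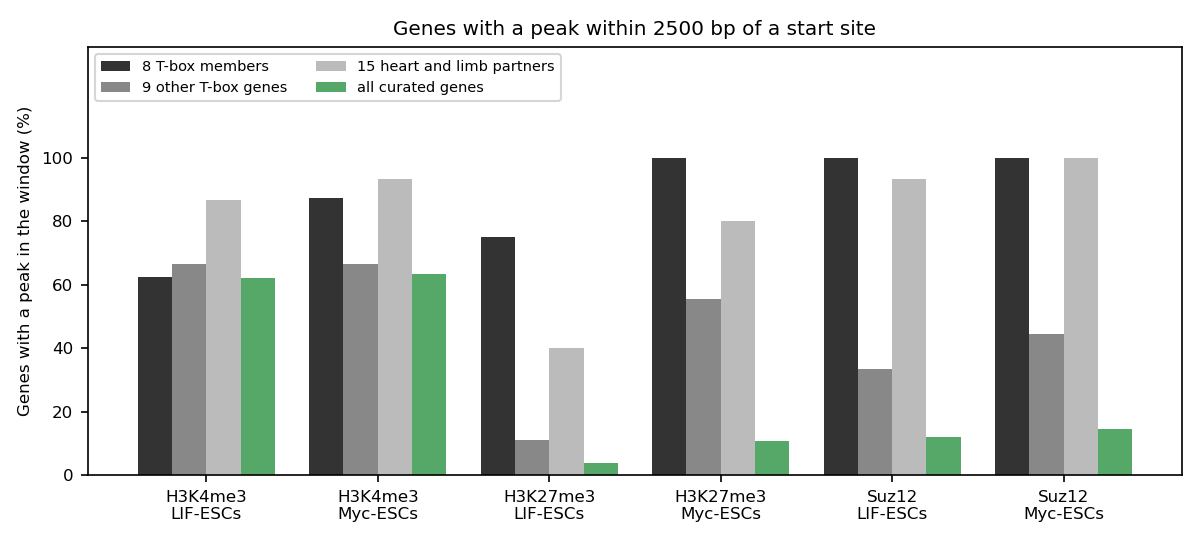
Share of genes, in percent, with a peak within 2500 bp of a start site, for each of the 6 lists. Bars show the 8 T-box genes, the 9 other T-box genes, 15 heart and limb partner genes and all 26180 curated genes. The T-box genes stand at 8 of 8 for Suz12 in both cultures and go from 6 to 8 of 8 for H3K27me3, against 3.82% and 10.7% of all genes.

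The same counts were read against genes that carry PRC2. Among all genes with Suz12 at the start, H3K27me3 was also present at 26.2% in the LIF-ESC lists and at 63.3% in those of Myc-ESCs. The T-box genes stood at 6 of 8 and 8 of 8. Tbx1 and Tbx21 had Suz12 in both cultures and H3K27me3 in Myc-ESCs only. This change was common among such genes, since 64.4% of the 2026 genes with Suz12 in both cultures and no H3K27me3 in LIF-ESCs had H3K27me3 in Myc-ESCs, against 7.95% of all genes without it in LIF-ESCs. Likewise, H3K4me3 appeared in Myc-ESCs at 2 of the 3 T-box genes that lacked it in LIF-ESCs, against 6.2% of all such genes. Among the 252 genes that had Suz12 and no H3K4me3 in LIF-ESCs the share was 63.5%.

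Suz12 peaks were broad at most of these genes. The 8 genes had a median of 59.1% of the start-site window within Suz12 peaks in LIF-ESCs, compared with 79.7% in Myc-ESCs, where all genes with Suz12 had medians of 17.2% and 24.0%. At Tbx15, Suz12 peaks covered 4564 of 5001 bases in LIF-ESCs and 4987 in Myc-ESCs, the highest share of the 8 in each list. Of all Suz12-marked genes, 96.4% and 97.7% had a smaller share covered. Tbx2 had 4315 and 4483 bases covered, and Tbx18 had 4419 and 4772. These 3 genes had at least 86.3% of the window covered in both lists. Tbx1 had 5468 of 8703 bases covered in LIF-ESCs and 7215 in Myc-ESCs. Tbx4 had 4235 and 4339 of 10002 bases, all around or downstream of its outermost start and none on the 250 bases before its internal one. Tbx5 and Tbx20 had 2766 and 2674 bases in LIF-ESCs, and 3231 and 3823 in Myc-ESCs. Tbx21 was set apart at the low end, with 919 bases in LIF-ESCs, 1282 in Myc-ESCs, and 51.7% and 52.3% of all Suz12-marked genes had a smaller share covered. The gene of the T-cell regulator was thus near the middle of all Suz12-marked genes, while each of the other 7 lay above at least 72.2% of them in both lists.

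All 8 genes had more bases within Suz12 peaks in Myc-ESCs than in LIF-ESCs. When only peaks with their midpoint in the window counted, 6 of 8 did, the exceptions being Tbx4 with 4235 and 1500 bases and Tbx5 with 2766 and 2480. With every overlapping peak, more bases in Myc-ESCs were also found at 81.4% of all genes with Suz12 in both cultures, and the median Myc-ESC to LIF-ESC ratio of the 8 was 1.13 against 1.38 over all such genes. A ratio is limited where most of the window is already covered in LIF-ESCs. In percentage points of the window, the median difference was 7.86 for the 8 and 8.76 over all such genes. At most of the 8 genes the larger cover came in fewer, longer peaks. At 6 of the 8 genes, all but Tbx4 and Tbx5, more bases were covered by fewer peaks, against 26.6% of all genes with Suz12 in both. These shares are not alike, since a gene with 1 LIF-ESC peak cannot go to fewer. Each of the 8 T-box genes had at least 2 Suz12 peaks in LIF-ESCs, whereas the lowest number over all Suz12-marked genes was 1. None of the T-box genes had more bases in fewer peaks for H3K4me3 or H3K27me3, against 1.92% and 4.7% of all genes with those marks in both. Those with a single LIF-ESC peak could not show it, and the marked T-box genes had medians of 1 H3K4me3 and 1.5 H3K27me3 peaks there. The marks can therefore not be compared in this respect. For Suz12, Tbx1 went from 6 peaks to 3 and Tbx18 from 3 to 1. The genes concerned depended on the setting. With scores of at least 100, Tbx20 went from 2 to 3 Suz12 peaks. With 1000 bp on each side, Tbx2 kept 2 and Tbx20 kept 1, while Tbx4 went from 2 to 1. Tbx1, Tbx15, Tbx18 and Tbx21 had more bases in fewer peaks under both of these settings. Over windows and gene bodies together, the LIF-ESC list had 50 Suz12 peaks at the 8 genes and the Myc-ESC list 36. That is a ratio of 0.72, whereas the whole Suz12 list had 1.23 times as many peaks in Myc-ESCs. The whole lists hold shorter peaks, with medians of 262 and 269 bp, against 660 and 635 bp at the 8 genes. Other genes with Suz12 in both cultures also had more bases in fewer peaks, 2 of 3 other T-box genes and 6 of 14 heart and limb partner genes. Individual peaks show the joining. At Tbx18, 6 LIF-ESC peaks of 200 to 2215 bp lay where a single Myc-ESC peak ran over 6671 bp, from -2271 to 4399. At Tbx1 the largest LIF-ESC peak was 1603 bp long, while the largest in Myc-ESCs spanned 4766 bp, from -1241 to 3524, and covered the outermost and the second start site. A peak caller joins neighbouring enriched stretches when the signal between them passes its limit, which also depends on depth, and the part of depth was not tested.

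**Figure D2:**
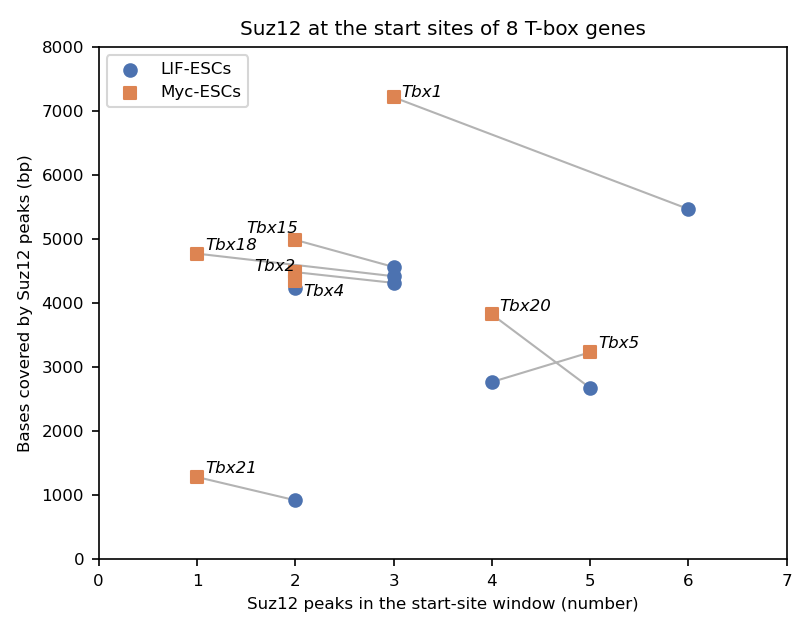
Number of Suz12 peaks (horizontal axis) and bases covered by them in bp (vertical axis) in the start-site window of each of the 8 genes. Circles are LIF-ESCs, squares are Myc-ESCs and a line joins the same gene. Every gene lies higher in Myc-ESCs, and at all but Tbx4 and Tbx5 the line also runs to the left, to fewer peaks.

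Chains of Suz12 peaks separated by at most 1000 bp were followed beyond the window. At Tbx2 the chain contained the whole gene in each culture and spanned 16103 bp in LIF-ESCs, compared with 16630 bp in Myc-ESCs. Suz12 peaks covered 93.2% and 94.5% of the 9334 bp of the Tbx2 body. At Tbx1 it spanned 6341 bp in LIF-ESCs but 11279 bp in Myc-ESCs, and the cover of the gene body was 74.0% and 96.6%. At Tbx15 a LIF-ESC chain of 6825 bp corresponded to a Myc-ESC chain of 13154 bp. The LIF-ESC list also had Suz12 peaks upstream of Tbx15, beginning at -5768 and -3734. The limit of 1000 bp left them out of the chain. LIF-ESC peaks between 6679 and 9679 at Tbx1 were left out in the same way. Chain lengths thus depend on this limit, and no other was tried. The chain at Tbx18 was 8352 and 14129 bp long, and that at Tbx4 9632 and 9736 bp. At Tbx20, 2 chains of 5282 and 2692 bp in LIF-ESCs corresponded to 1 of 13023 bp in Myc-ESCs. Tbx5 kept 2 chains in both cultures, of 2181 and 7630 bp in LIF-ESCs, or 3153 and 10167 bp in Myc-ESCs, with its start site in the gap. The chain at Tbx21 spanned only 1075 and 1282 bp. Over the gene bodies all 8 genes had Suz12 peaks in both lists, against 12.0% and 14.7% of all genes. More bases of the body were covered in Myc-ESCs at 6 of 8, against 78.5% of all genes with Suz12 there in both. The exceptions were Tbx4, with 9157 LIF-ESC and 8667 Myc-ESC bases, and Tbx15, with 6583 and 6298.

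**Figure D3:**
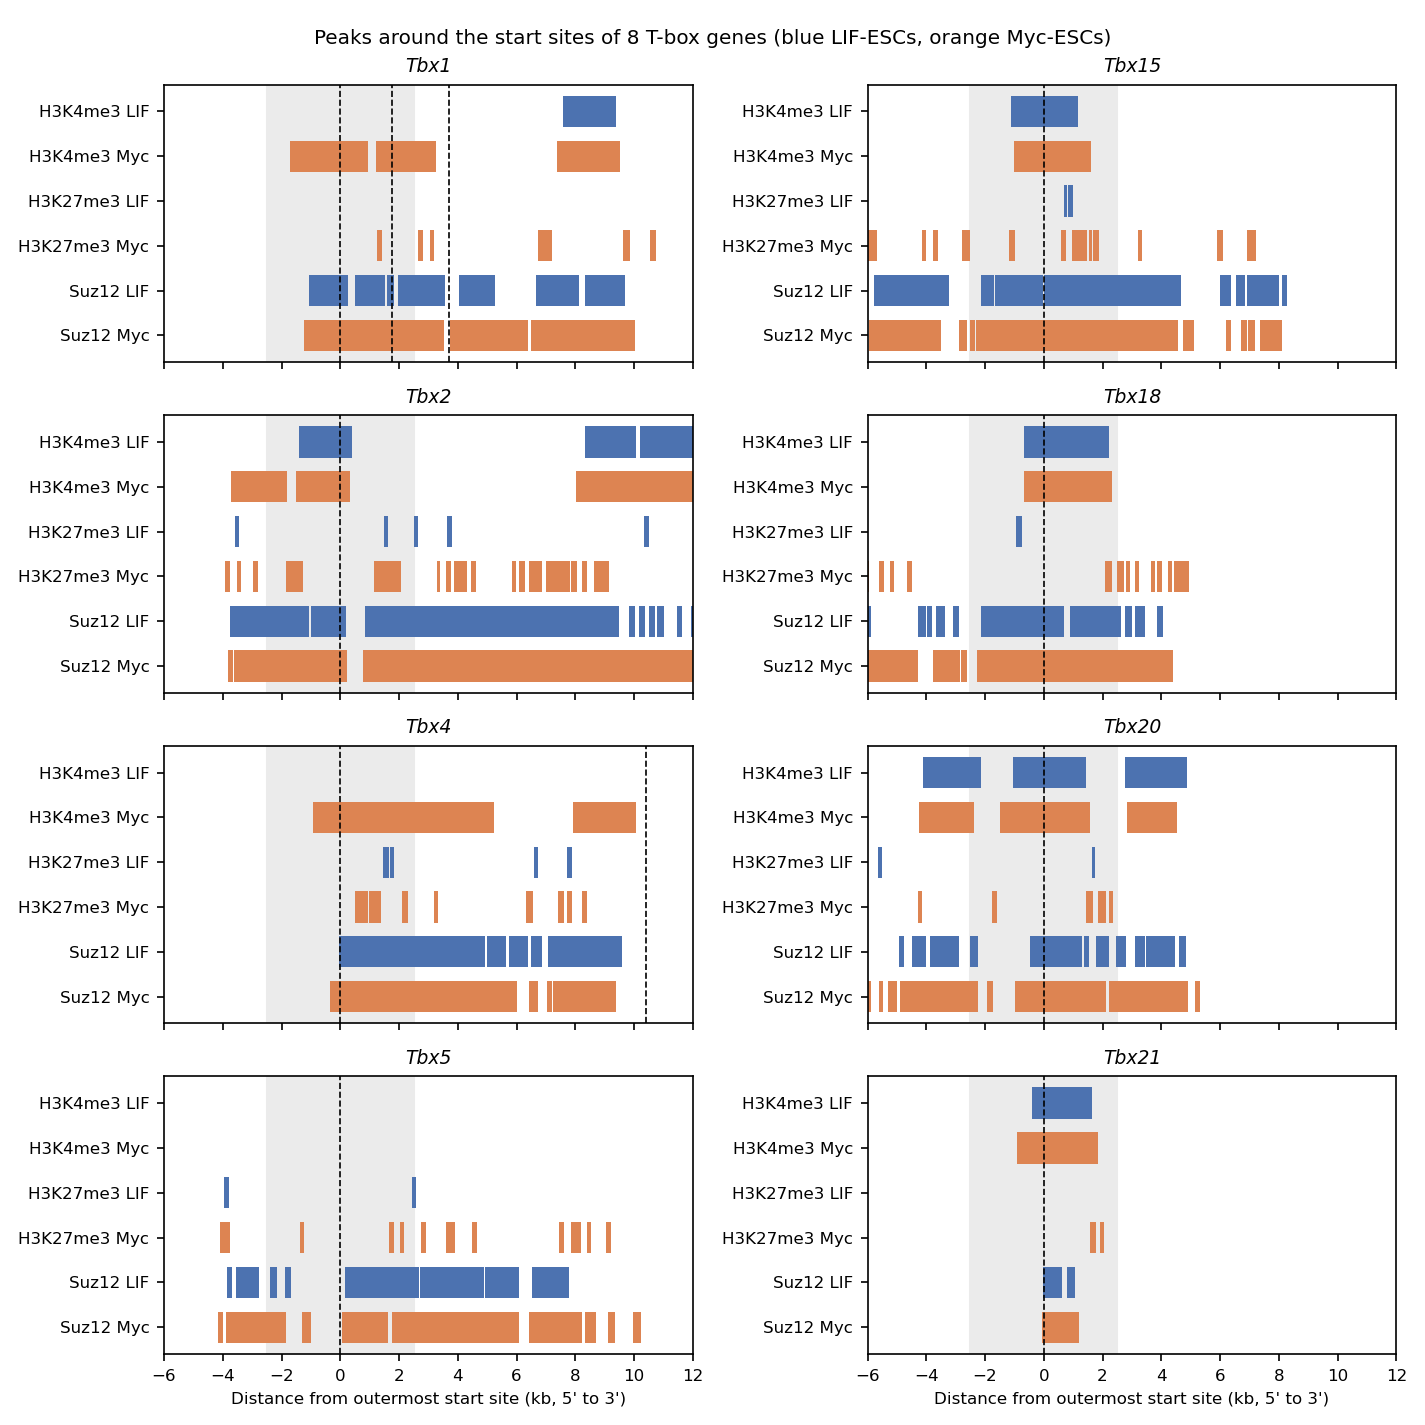
Peaks of the 6 lists around each gene, drawn by distance in kb from the outermost start site along the direction of transcription. Blue bars are LIF-ESC peaks, orange bars Myc-ESC peaks, dashed lines start sites and the grey band the window of 2500 bp on each side of the outermost start. Suz12 forms the longest blocks at most genes, H3K27me3 lies in short pieces beside the start sites, and H3K4me3 at Tbx1 and Tbx4 start sites is seen in orange only.

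H3K27me3 covered far fewer bases than Suz12 at every gene. In LIF-ESCs the 6 marked genes had 67 to 340 bases within H3K27me3 peaks, in 1 or 2 peaks each. In Myc-ESCs the 8 genes had 241 to 1500 bases, in 2 to 5 peaks. Tbx2 went from 156 bases in LIF-ESCs to 1500 in Myc-ESCs, and in the latter list 92.8% of all H3K27me3-marked genes had a smaller share of the window covered. Tbx15 went from 278 to 1215 bases, Tbx20 from 116 to 806, and Tbx4 from 340 to 1196. These 4 genes had the largest H3K27me3 cover of the 8 in Myc-ESCs. Tbx5 had 67 and 431 bases. Tbx1 had none in LIF-ESCs but 463 in Myc-ESCs, and Tbx21 had none and 354. Tbx18 had 203 bases in LIF-ESCs and 241 in Myc-ESCs, values set by the window, since with 5000 bp on each side it had 203 and 1845 and with 1000 bp 203 and 0. All 6 genes with H3K27me3 in both lists had more bases in Myc-ESCs, as did 89.0% of all genes with it in both. The median ratio was 5.4 for these 6 genes and 3.07 over all such genes. However, over all genes the summed H3K27me3 bases in start-site windows were 5.33 times as many in Myc-ESCs, and over the 8 genes 5.35 times as many, so that their summed difference was that of the lists.

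**Figure D4:**
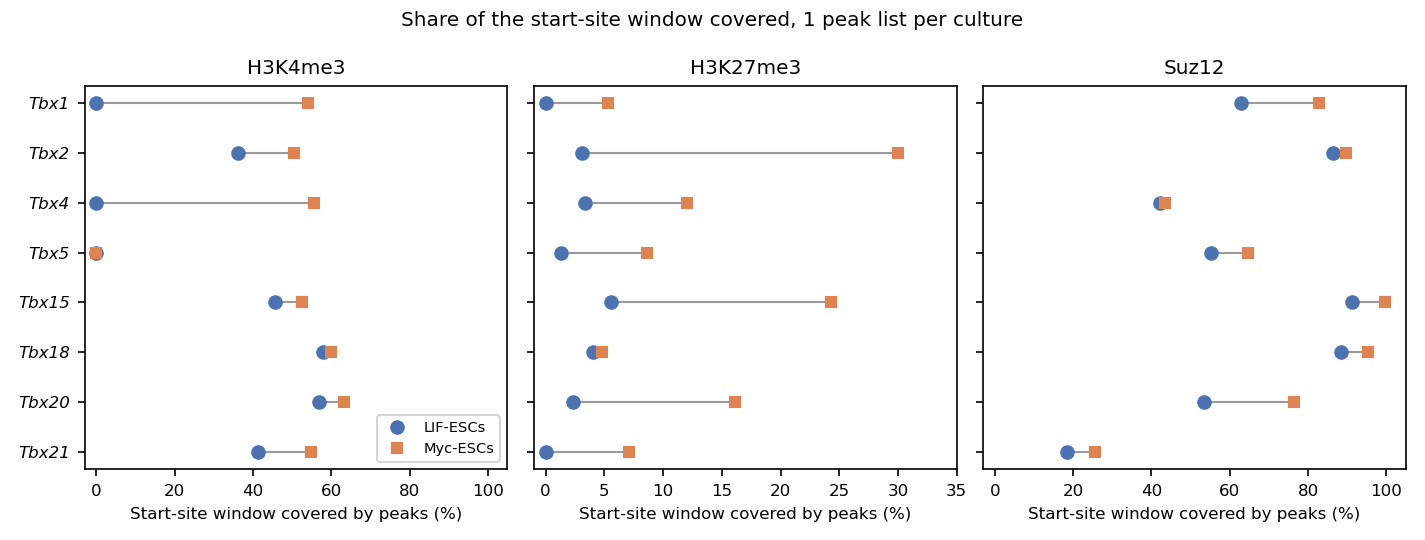
Share of the start-site window covered by peaks, in percent, for each gene and mark. Blue circles are LIF-ESCs and orange squares Myc-ESCs, with 1 list per culture and no error bars, and the H3K27me3 panel has a shorter axis. H3K27me3 at Tbx2 reaches 30.0% in Myc-ESCs, the highest of the 8, while Tbx18 lies at 4.06% and 4.82% in this window, and Tbx5 lies at 0 for H3K4me3 in both lists.

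The H3K27me3 peaks were weak and short. All 12 LIF-ESC peaks in the windows and bodies of the 8 genes, and 51 of the 66 Myc-ESC peaks, had a score below 100. The score is the peak caller's −10 log10 p-value. It grows with depth as well as enrichment, and the lists began at 50. Below 100 lay 89.1% of the whole LIF-ESC list and 79.8% of the Myc-ESC list. With peaks of at least 100 only, none of the 8 genes had H3K27me3 in LIF-ESCs, where 0.458% of all genes had it, and Tbx2, Tbx4, Tbx15, Tbx18 and Tbx20 had it in Myc-ESCs, where 3.73% of all genes had it. When only the 3120 best-scoring Myc-ESC peaks were used, to equal the LIF-ESC list, H3K27me3 was at 3.53% of all genes in Myc-ESCs against 3.82% in LIF-ESCs, so that the higher share of all genes in Myc-ESCs was not seen. The same 5 T-box genes remained marked there, Tbx5 was marked in LIF-ESCs only, and neither Tbx1 nor Tbx21 was marked in either culture. The Myc-ESC-only H3K27me3 at Tbx1 and Tbx21 therefore rested, in the window, on peaks with scores no higher than 58.7.

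Peaks of H3K27me3 lay beside the start sites and mostly downstream of them. Not one start site of the 8 genes lay within an H3K27me3 peak in either culture, as for all but 2.60% of the marked genes in LIF-ESCs and all but 3.84% in Myc-ESCs. In Myc-ESCs the nearest H3K27me3 peak to the outermost start site was 514 bp away at Tbx4 and 586 bp away at Tbx15, and at most 2098 bp away, at Tbx18. Within the window of the outermost start, 82.5% of the H3K27me3 bases in LIF-ESCs and 81.2% in Myc-ESCs lay downstream. Over all marked genes these shares were 52.9% and 53.8%. All 8 T-box genes had more H3K27me3 bases downstream than upstream in Myc-ESCs, as did 58.2% of all marked genes. In LIF-ESCs it was 5 of 6, against 55.9%, and the exception was Tbx18. For Suz12 the downstream shares of the T-box genes, 64.8% and 61.3%, were close to the 63.1% and 62.8% of all marked genes. H3K4me3 peaks covered a start site at all 5 marked T-box genes in LIF-ESCs and all 7 in Myc-ESCs (95.0% and 95.2% of all marked genes). Suz12 peaks did so at 6 of 8 in LIF-ESCs and 7 of 8 in Myc-ESCs (39.5% and 48.9%). At Tbx5 the nearest Suz12 peak began 157 bp downstream of the start in LIF-ESCs and 63 bp downstream in Myc-ESCs.

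The H3K27me3 peaks fell largely inside Suz12 peaks of the same culture. Of the 12 LIF-ESC peaks 11 lay wholly within Suz12 peaks, and of the 66 Myc-ESC peaks 52 did so and 59 touched one. In the windows of genes with all 3 marks, 86.8% of the H3K27me3 bases of the T-box genes lay in Suz12 peaks in LIF-ESCs, compared with 92.2% in Myc-ESCs, against 57.1% and 64.1% over all such genes. At Tbx21 both H3K27me3 peaks of Myc-ESCs, from 1582 to 1791 and from 1914 to 2057, lay outside Suz12, which ended at 1204. Over windows and gene bodies together, an H3K4me3 peak was touched by 2 of the 12 H3K27me3 peaks in LIF-ESCs and by 22 of the 66 in Myc-ESCs. In the windows of T-box genes with all 3 marks, it was 2 of 6 peaks (33.3%) in LIF-ESCs and 17 of 24 (70.8%) in Myc-ESCs. Over all such genes the shares were 54.5% and 64.2%. The T-box genes with all 3 marks were 4 in LIF-ESCs and 7 in Myc-ESCs. These shares, and those in Suz12 above, thus come from different genes in the cultures.

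The sequences of 3 H3K27me3 peaks are given because each was present in 1 culture only, at genes where the H3K27me3 lists differed most in place or presence. They run 5′ to 3′ along the gene, with CpG in capitals.
Tbx18 upstream, LIF-ESCs only, chr9:87732012-87732214, minus strand: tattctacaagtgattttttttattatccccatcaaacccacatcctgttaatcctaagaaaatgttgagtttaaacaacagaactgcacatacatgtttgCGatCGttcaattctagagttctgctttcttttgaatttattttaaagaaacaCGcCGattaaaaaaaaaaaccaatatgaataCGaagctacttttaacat
Tbx1 intron 1, Myc-ESCs only, chr16:18589267-18589411, minus strand: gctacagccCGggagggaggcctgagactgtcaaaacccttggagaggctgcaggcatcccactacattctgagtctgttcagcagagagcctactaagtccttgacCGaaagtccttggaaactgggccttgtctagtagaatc
Tbx21 intron 1, Myc-ESCs only, chr11:97113540-97113749, minus strand: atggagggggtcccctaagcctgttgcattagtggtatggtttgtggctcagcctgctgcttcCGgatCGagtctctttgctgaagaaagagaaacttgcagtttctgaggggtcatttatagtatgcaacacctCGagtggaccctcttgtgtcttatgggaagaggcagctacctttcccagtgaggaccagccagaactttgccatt
The Tbx18 peak had a score of 84.5, a GC content of 30.0% and 5 CpG in 203 bp. It lay from -954 to -752, inside Suz12 in both cultures. The Tbx1 peak had a score of 54.4, a GC content of 53.8% and 2 CpG in 145 bp. The Tbx21 peak had a score of 58.7, a GC content of 50.5% and 3 CpG in 210 bp.

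Within the window and gene body of Tbx18, the H3K27me3 peaks of the cultures lay on opposite sides of the start site. Farther upstream, outside the window, Myc-ESCs also had H3K27me3 peaks, among them those beginning at -4641 and -5240, so that their peaks lay on both sides. In LIF-ESCs it had the single upstream peak shown above. In Myc-ESCs that peak was absent, and 9 peaks ran from 2098 to 4938 through introns 2 and 3 and exon 3, covering 1703 bases of the gene body, which had none in LIF-ESCs. The first 7 of the 9 lay within the long Suz12 peak, and the last 2 lay beyond its end at 4399. Meanwhile H3K4me3 at Tbx18 ran from -678 to 2222 in LIF-ESCs and from -685 to 2316 in Myc-ESCs, nearly the same stretch.

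Tbx2 had the most extensive H3K27me3 of the 8 genes. Its body had 3 peaks and 443 bases in LIF-ESCs, and 14 peaks and 4285 bases, 45.9% of the gene, in Myc-ESCs. The largest Myc-ESC peak was 907 bp long, lay from 1159 to 2065 over intron 1 and exon 2 and had a score of 488, the highest of any H3K27me3 peak at the 8 genes. It overlapped the LIF-ESC peak of 148 bp in intron 1. H3K4me3 at the Tbx2 start spanned 1803 bp and 1843 bp. An additional Myc-ESC peak of 1911 bp lay upstream, from -3722 to -1812. A second H3K4me3 site lay at the 3′ end of the gene, where a LIF-ESC peak ran from 8339 to 10069 with a score of 89.5 and another LIF-ESC peak began at 10202. A single Myc-ESC peak ran there from 8030 to 13218, with a score of 1250, and no GENCODE start site lay in it. The window of Tbx2 is shared with the divergent long non-coding RNA gene 2610027K06Rik, whose start lies 227 bp away, so that peaks there cannot be assigned to either gene.

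At Tbx4, the hindlimb gene next to Tbx2, H3K4me3 was absent from the window in LIF-ESCs, and the nearest peak lay 37936 bp from the outermost start site. In Myc-ESCs a peak of 6177 bp with a score of 492 ran from -941 to 5235, and a second of 2134 bp lay in intron 3, from 7933 to 10066. The long peak lay almost wholly within Suz12, which overlapped 5574 of its 6177 bases. H3K27me3 over the body had 4 peaks and 690 bases in LIF-ESCs and 9 peaks and 1915 bases in Myc-ESCs. All of these Myc-ESC peaks lay wholly in Suz12, except 1 in intron 3 with 127 of its 225 bases there. Between Tbx2 and Tbx4 lie 44418 bp, of which Suz12 covered 3.77% in LIF-ESCs and 8.29% in Myc-ESCs, while H3K27me3 covered 0.421% in LIF-ESCs and had no peak in Myc-ESCs. The H3K27me3 at these neighbouring genes in Myc-ESCs was thus in separate stretches.

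At Tbx1, H3K4me3 in Myc-ESCs came as a peak of 2646 bp from -1718 to 927, with a score of 116, and one of 2055 bp from 1213 to 3267, with a score of 86.4. The third start site, at 3702, lay in neither. In LIF-ESCs the gene had a single H3K4me3 peak of 1810 bp at its 3′ end, from 7569 to 9378, with a score of 122, and a Myc-ESC peak of 2137 bp overlapped it. H3K27me3 in Myc-ESCs comprised 6 peaks over the gene body, with 983 bases, the strongest with a score of 102 at the 3′ end, and the LIF-ESC list had none there. All 6 lay wholly within Suz12.

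Tbx5 was the member with PRC2 marks and no H3K4me3 at the start. The nearest H3K4me3 peak lay 31523 bp from its start in LIF-ESCs, compared with 30035 bp in Myc-ESCs. Over the gene body it had a single H3K4me3 peak, in intron 7, of 1580 bp with a score of 50.6 in LIF-ESCs, and of 2243 bp with a score of 296 in Myc-ESCs. No GENCODE start site lay in it. Suz12 touched this intronic site in both cultures, with 207 bases in LIF-ESCs and 814 in Myc-ESCs. H3K27me3 over the Tbx5 body had 1 peak and 146 bases in LIF-ESCs and 11 peaks and 1962 bases in Myc-ESCs. The long non-coding RNA gene Gm5563 starts 2677 bp from the Tbx5 start on the opposite strand, and its window had no H3K4me3 in either list either. Between Tbx5 and its paralogue Tbx3 lie 149938 bp, of which Suz12 covered 4.60% in LIF-ESCs, 9.94% in Myc-ESCs, and H3K27me3 covered 0.478% and 1.95%.

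H3K4me3 at the remaining genes differed less between the lists. At Tbx15 the peak over the start was 2278 bp long with a score of 140 in LIF-ESCs and 2625 bp with a score of 457 in Myc-ESCs. Both lay almost wholly within Suz12. At Tbx20 the peak over the start was 2467 bp long in LIF-ESCs, 3058 bp long in Myc-ESCs, and an upstream and an intragenic peak were present in both cultures. In LIF-ESCs the intragenic peak held 2 GENCODE start sites of Tbx20, and the upstream peak held 1, of Gm29824. The Myc-ESC peaks at these places held none. At Tbx21 the peak over the start was 2063 and 2739 bp long, the highest-scoring H3K4me3 of the 8 genes at a start in each list, with 570 and 697. A second one overlapped the last exon in both. All 5 T-box genes with H3K4me3 in both cultures had more bases covered in Myc-ESCs, as did 65.0% of all genes with it in both. The median share of the window covered was 45.6% in LIF-ESCs and 54.8% in Myc-ESCs, below the medians of 64.0% and 67.1% over all genes with H3K4me3. Over the bodies, H3K4me3 was found at 7 of the 8 genes in LIF-ESCs, all but Tbx4, and at all 8 in Myc-ESCs, against 64.3% and 65.3% of all genes. H3K27me3 over the bodies was found at 5 of 8 and 8 of 8, against 3.80% and 10.7%.

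Covered bases in the 6 lists were used to place the genes beside each other and beside other genes, with the summed absolute difference as the measure. Tbx2 and Tbx15 were nearest to each other, with a summed difference of 1728 bases. Tbx18 was nearest to Tbx15 (2409) and Tbx20 nearest to Tbx18 (3569). Tbx1, Tbx4, Tbx5 and Tbx21 were each at least 5559 bases from their nearest member, and the windows of Tbx1 and Tbx4 are longer, which can add to their distance. The median of the 8 genes was 1933 and 2870 bases of H3K4me3 in LIF-ESCs and Myc-ESCs, 136 and 634 bases of H3K27me3, and 4275 and 4411 bases of Suz12. The genes outside the T-box family closest to this median were the homeobox genes Hmx3 (907 bases away), Isl2 (996) and Six2 (1014), followed by 2610027K06Rik (1231), which shares the window of Tbx2, and Onecut1 (1427). Hmx3 had 110 and 714 bases of H3K27me3, whereas Isl2 had 0 and 361, Six2 0 and 983, and Onecut1 none in either list.

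Of the other 9 T-box genes of the mouse, 3 had Suz12 at the start site in LIF-ESCs (T, Tbr1 and Eomes), and 4 had it in Myc-ESCs, with Tbx3 in addition. H3K27me3 was found at Tbr1 alone in LIF-ESCs, and in Myc-ESCs also at Tbx3, Tbx22, T and Eomes. T (Brachyury) and Eomes, both regulators of early mesoderm, had Suz12 over 2894 and 4074 of 5001 bases in LIF-ESCs and 4114 and 4757 in Myc-ESCs. H3K4me3 was found at the same 6 of the 9 in both cultures. Tbx6 and Mga, a T-box factor that dimerizes with Max, had H3K4me3 and neither of the other marks, and Tbx10 and Tbx19 had no peak in the window in any list. The 8 and the 9 genes were separated with results of these data known, so that the difference between them was not tested.

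Of 15 heart and limb genes that act with the T-box factors, such as Gata4, Nkx2-5 and Hand2, 14 had a Suz12 peak in the window in LIF-ESCs and all 15 had one in Myc-ESCs, the additional gene being Fgf10, the limb bud growth factor. H3K27me3 was found at 6 in LIF-ESCs and 12 in Myc-ESCs, against 3.82% and 10.7% of all genes. Gata6, Nkx2-5, Isl1, Fgf10 and Foxc1 were among those with H3K27me3 in Myc-ESCs only. Those peaks scored at most 96.4 at Gata6, Nkx2-5, Isl1 and Fgf10, and at most 167 at Foxc1, in the longer of the 2 lists. H3K4me3 was found at 13 and 14, the additional gene being Tcf21, with 0 bases in LIF-ESCs and 2555 in Myc-ESCs. Among the 6 partners with H3K27me3 in both lists the median ratio of covered bases was 5.64. It was 5.4 for the T-box genes and 3.07 over all genes with H3K27me3 in both.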

How the data were processed

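Per the labels and the study's methods, HiSeq2000 reads were mapped by the authors to GRCm38 (Bowtie2 2.2.3). They kept reads with a unique best match and called peaks over background with MACS 1.4.2 at default settings. They deposited 6 BED lists with a score per peak, −10 log10 of the p-value. Whether the libraries of each culture and antibody were pooled is not given in the sources used here. Inputs were not analysed here.

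Peaks were compared with curated RefSeq transcripts of GRCm38 (45756 transcripts, 26180 symbols) in Python 3.11.15, with pysam 0.24.0, numpy 2.4.6 and matplotlib 3.10.9. Marked genes had a peak overlapping the window of 2500 bp around any start site, or the gene body, by at least 1 bp. Covered bases are the union of peaks. All peaks lay within the chromosomes, with 0 overlaps within a list. The code was tested on simulated data, with 0 of 1000 interval comparisons and 0 of 400 planted peaks wrong. The 6 promoters of these genes in the RefSeq table equalled the genome.

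All 8 genes are described, other T-box and partner genes are given by counts and, except for an item not reported here, where marks differ, and the 5 most similar genes by covered bases are named. Members and gene lists were chosen with earlier results of these data known. Alternative settings were scores of at least 100, lists of equal length, other windows, peak midpoints, the outermost start only, other body limits and GENCODE start sites.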

Additional observations from a re-analysis of the deposited data

How the results depend on the processing

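Of the counts over the 8 genes, 112 values under the alternatives stayed within 1.5 times the reported count and 17 did not. With scores of at least 100, H3K27me3 at the start was found at 0 genes in LIF-ESCs but 5 in Myc-ESCs, 5 had it in Myc-ESCs only, 5 had more bases there, and 0 had it over the body in LIF-ESCs. With lists of equal length, 5 genes had H3K27me3 in Myc-ESCs, 0 had it in Myc-ESCs alone, 1 had it in LIF-ESCs alone, and 5 had more bases in Myc-ESCs. With a window of 1000 bp, H3K27me3 was at 2 genes in LIF-ESCs, at 3 in Myc-ESCs, 1 had it in LIF-ESCs only, 2 had more H3K27me3 bases in Myc-ESCs and 4 more H3K4me3 bases. With a window of 5000 bp, and with GENCODE start sites (chosen after seeing the data), 1 gene had H3K4me3 in Myc-ESCs only, since Tbx1 then had a LIF-ESC peak. Without the first 2500 bp of the body, 3 genes had H3K27me3 there in LIF-ESCs. The cause of the other shifts was not tested.

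Myc-ESC minus LIF-ESC cover turned in direction, in percentage points of the window, at Tbx5 for H3K27me3 with lists of equal length (-1.3). With 1000 bp it turned at Tbx2 for H3K4me3 (-2.6) and at Tbx15 (-2.7) and Tbx18 (-10.1) for H3K27me3. It turned at Tbx4 for Suz12 with 5000 bp (-0.9) and at Tbx20 for H3K4me3 with GENCODE start sites (-0.9). With peak midpoints, 6 of 8 genes had more Suz12 bases in Myc-ESCs, and the direction turned at Tbx4 (4235 to 1500 bases) and Tbx5 (2766 to 2480). Suz12 was found at the start sites of all 8 genes in both cultures under every alternative, and over 7 bodies in each culture without their first 2500 bp. No replicate could be left out, since each culture and antibody has a single list. No paired analysis was possible because the lists hold no values per library. Depth is unknown, and a missing peak does not show that a mark is absent.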

Other observations

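Tbx3, a T-box gene active in ESCs and the paralogue of Tbx2, differed from the developmental members. H3K4me3 covered all 5372 bases of its start-site window in LIF-ESCs, compared with 4852 in Myc-ESCs, and 99.9% and 57.7% of its gene body. Suz12 covered none of the window in LIF-ESCs, where the nearest peak lay 125342 bp away, and all 5372 bases in Myc-ESCs, in a single peak with a score of 3100. H3K27me3 covered 0 and 452 bases. Tbx3 was named after its values were seen, and these are 2 lists without replicate values.

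Wt1 and Mef2c, both among the heart and limb partner genes, had less Suz12 over the gene body in Myc-ESCs. At Wt1, which acts in the epicardium and kidney, Suz12 covered 6084 bases in LIF-ESCs and 1834 in Myc-ESCs, while H3K4me3 covered 1591 and 7721. At Mef2c, a muscle and heart factor, Suz12 covered 907 and 199 bases. Both genes were named after their values were seen.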
